A study of Mus musculus with 8 samples.

Results

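The genes described here encode the subunits of the mitochondrial respiratory chain and ATP synthase that are carried in the nuclear genome. They were found by name in the annotation of the array: symbols beginning with Ndufa, Ndufb, Ndufc, Ndufs, Ndufv, Uqcr, Cox4, Cox5, Cox6, Cox7, Cox8 or Atp5, and Sdha, Sdhb, Sdhc, Sdhd and Cyc1, without the assembly factors whose names hold "af". Only probe sets naming 1 gene were used, and each gene was represented by its brightest one, that is, the one with the highest mean over all 8 arrays. This gave 83 subunit genes of 18193 genes measured: 34 of complex I, 4 of complex II, 9 of complex III, 19 of complex IV and 17 of complex V. Expression had been measured on Affymetrix arrays in Lin-Sca+Kit+ cells, the fraction of blood-forming cells that holds the stem cells, sorted from the fetal liver of C57/B6 mice, and each array held cells from a single animal. There were 3 groups: wild type (WT, 2 mice), ADAR1 +/- (HT, 3 mice) and ADAR1 -/- (KO, 3 mice), with the 5 WT and HT mice called controls below. ADAR1 edits RNA, changing adenosines in double-stranded stretches into inosines. The sources used here give neither the age of the fetuses nor the deleted part of the gene. The comparison asks which of these genes differ between fetal stem cells with and without ADAR1.

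The respiratory chain lies in the inner mitochondrial membrane. Complex I takes electrons from NADH and complex II from succinate, complex III passes them to cytochrome c, and complex IV passes them to oxygen. Complexes I, III and IV pump protons, and complex V, the ATP synthase, uses the proton gradient to make ATP. A few core subunits are encoded by mitochondrial DNA, and the others, described here, are made in the cytosol and imported. Fetal stem cells divide more than adult ones, and their reliance on oxidative phosphorylation relative to glycolysis is a long-standing subject of study.

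Levels are log2 of the deposited intensity, so that 1 unit is a doubling, and differences are given with the standard error of the limma fit. The share of tested probe sets brighter than background was 45.6% to 61.2% in controls and 40%, 46.4% and 44.7% in KO, where background was the highest of 27 bacterial control probe sets on the array. Of the 83 subunit genes, 77 to 80 were above background on each array, and 72 had a mean level of at least 6. Adar itself read 7.66 and 17.6 (linear intensity) on the WT arrays, 13.1, 16.1 and 9.89 on the HT arrays and 59.7, 144 and 176 on the KO arrays. Whether its probes lie in the deleted part is not known here, so this reading is no check of the labels. Among markers of the sorted cells, the probe set of Kit read 9.33 to 23.5 (linear) over all 8 arrays and that of Procr was at background in KO and in controls, while the summed level of 9 stem and progenitor markers was 913 to 1060 in WT, 986 to 1110 in HT and 575 to 1250 in KO. The 6 erythroid markers summed to 570 to 669, 943 to 992 and 817 to 880, and the 6 endothelial and stromal markers to 101 to 136, 120 to 184 and 173 to 430. Of the erythroid markers, 1 rose in KO against WT (Gata1, adjusted p = 0.0355, limma) and none passed against all controls, where Gata1 was at 0.80 and Tfrc at -0.48; the median of the 6 was 0.18. The summed markers of hepatocytes and macrophages were lower on every KO array than on any control array. The 7 hepatocyte markers summed to 197 to 614 in WT, 620 to 1080 in HT and 57.7 to 74.8 in KO, the 7 macrophage markers to 116 to 651, 158 to 321 and 44.1 to 50.1. The 5 mature myeloid and mast cell markers summed to 298 to 383, 185 to 464 and 62.8 to 207, with overlap. Against all controls, 1 of the 7 hepatocyte markers fell (Afp, adjusted p = 0.0403, limma, above background on 1 of 3 KO arrays) and 1 of the 5 myeloid and mast cell markers (Lyz2, -2.54, 0.0207). The median difference was -2.39 for the hepatocyte markers and 0.02 for the myeloid and mast cell markers. It was -0.62 for the macrophage, -0.42 for the stem and progenitor and 0.47 for the endothelial and stromal markers. Of the macrophage markers 5 were at background in KO, as were 2 of the hepatocyte and 2 of the myeloid markers. On all control arrays 2 of the macrophage markers were at background, and 0 of the hepatocyte and myeloid markers. The part of these markers' cells in the results below was not tested. In such bulk samples, fewer cells of a type and less RNA per cell cannot be told apart.

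Promoter windows from 250 bases before to 50 after the gene's start (RefSeq, build GRCm38.p6) were found for 67 of the 83 genes. Promoters of respiratory chain genes are known for binding sites of NRF1, of ETS family factors such as GABP, and of YY1, so matches to 1 short form of each were counted on both strands. GCATGCGC (NRF1-type) was held by 9 of the 67 genes (13.4%) against 3.05% of 27025 genes and 2.71% of 32851 windows. CCGGAAG (ETS-type) was held by 17 genes (25.4%) against 9.93% of genes and 8.86% of windows, and AAGATGGC (YY1-type) by 9 (13.4%) against 3.19% and 2.75%. These backgrounds were not matched to the subunit genes by expression level. Whether other genes of similar level hold the motifs as often was not tested. Among the 21 subunit genes whose 3 KO arrays all lay below the 5 control arrays (below), 18 had a window, and the motifs were held by 3, 6 and 4 of them. The 250 bases before the start of 5 of those 21 genes are shown 5′ to 3′ along the gene's strand. These 5 include all 3 of the 18 that held the NRF1-type motif, so they do not represent the 18. Capitals mark matches. The windows are chr1:58586147-58586396 (plus strand) for Ndufb3, chr7:3617123-3617372 (plus) for Ndufa3, chr5:108434400-108434649 (minus) for Atp5k, chr9:44920743-44920992 (minus) for Atp5l and chr4:140961021-140961270 (plus) for Sdhb.
Ndufb3: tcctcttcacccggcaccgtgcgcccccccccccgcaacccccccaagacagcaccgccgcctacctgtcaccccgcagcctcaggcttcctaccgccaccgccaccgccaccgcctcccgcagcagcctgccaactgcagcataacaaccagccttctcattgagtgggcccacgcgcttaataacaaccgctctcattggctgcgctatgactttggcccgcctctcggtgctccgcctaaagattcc
Ndufa3: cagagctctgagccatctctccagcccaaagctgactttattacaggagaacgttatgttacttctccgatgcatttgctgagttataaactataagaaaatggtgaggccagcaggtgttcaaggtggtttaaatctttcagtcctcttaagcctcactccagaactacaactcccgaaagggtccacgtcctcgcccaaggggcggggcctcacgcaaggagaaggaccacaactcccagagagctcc
Atp5k: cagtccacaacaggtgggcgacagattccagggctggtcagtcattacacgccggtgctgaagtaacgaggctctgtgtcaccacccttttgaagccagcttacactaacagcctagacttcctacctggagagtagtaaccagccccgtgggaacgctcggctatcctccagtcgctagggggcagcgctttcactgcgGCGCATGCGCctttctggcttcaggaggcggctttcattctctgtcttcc
Atp5l: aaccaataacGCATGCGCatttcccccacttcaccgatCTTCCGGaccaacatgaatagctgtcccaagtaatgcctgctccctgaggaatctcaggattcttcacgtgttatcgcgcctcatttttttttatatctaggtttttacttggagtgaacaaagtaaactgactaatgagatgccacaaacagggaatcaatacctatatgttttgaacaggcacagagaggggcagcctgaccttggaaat
Sdhb: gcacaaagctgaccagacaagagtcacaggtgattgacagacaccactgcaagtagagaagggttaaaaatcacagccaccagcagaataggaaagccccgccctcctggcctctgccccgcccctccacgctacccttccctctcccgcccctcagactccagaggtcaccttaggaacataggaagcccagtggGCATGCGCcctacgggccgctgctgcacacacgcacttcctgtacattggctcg
In these 250 bases Ndufb3 and Ndufa3, both of which passed the test in KO, held no match, Atp5k held overlapping NRF1-type matches on both strands, Atp5l an NRF1-type and an ETS-type match, and Sdhb an NRF1-type match. The 50 bases after the start, not shown, held a YY1-type match in Ndufa3 and an ETS-type match in Atp5k, Atp5l and Sdhb, so that Ndufb3 alone of the 5 had none in the whole window. A match of these letters is a description and not a binding site.

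Most subunit genes read lower in KO cells than in controls, but few of them passed the test. Ndufb3, Ndufs1 and Ndufa3, all of complex I, fell in KO against all controls, by 1.73 to 3.04 on the log2 scale, and no subunit gene rose. These were 3 of 83 genes (3.61%) beside 0.379% of all genes that were lower at an adjusted p under 0.05 (limma, Benjamini-Hochberg over 45037 probe sets). At a mean level of at least 6 the count was 2 of 72 (2.78%) beside 1.14% of the 3765 genes at that level. For higher levels in KO the count was 0 of 83 beside 0.555% of all genes, and at an unadjusted p under 0.05 it was 2, both dim (Cox8c and Cox7c), beside 5.51%. At an unadjusted p under 0.05, 32 subunit genes (38.6%) were lower beside 7.98% of all genes; of the 72 brighter ones, 31 (43.1%) were lower beside 21.5%. The genes with a mean level of at least 6 are the closer background, since more of them were lower in KO. That level is a floor only: subunit genes reached a mean of 12.87 (Atp5a1), and levels above 6 were not matched.

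The difference from controls was negative in 70 of the 83 genes, with a median of -0.40 against 0.03 over all genes. Among genes with a mean level of at least 6, 66 of 72 subunit genes were lower (91.7%, median -0.58) and 71.4% of the 3765 genes were lower (median -0.39). Other genes of that brightness were thus also lower in KO, by a smaller median. By complex, the difference was negative in 28 of 34 genes of complex I (median -0.31), 4 of 4 of complex II (-1.47), 9 of 9 of complex III (-0.59; Uqcr10 was at 0.00), 12 of 19 of complex IV (-0.18) and 17 of 17 of complex V (-0.73). Complex IV holds 8 dim genes, mostly tissue-restricted forms, and among those with a mean level of at least 6 its count was 10 of 11 (median -0.57), beside 26 of 31 in complex I (-0.31). The median of complex I was thus no lower than the -0.39 over all genes at that level. The count of negative differences shrank when the arrays were normalized to each other: to 22, 4, 6, 12 and 15 for complexes I to V under quantile normalization and to 19, 4, 5, 10 and 13 under cyclic loess, with medians of -0.12, -1.30, -0.38, -0.12 and -0.52 under the first and -0.07, -1.14, -0.28, -0.02 and -0.40 under the second. Over all genes the calls were 69 lower and 101 higher, and they were 35 and 114 under quantile normalization and 31 and 129 under cyclic loess.

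**Figure D1:**
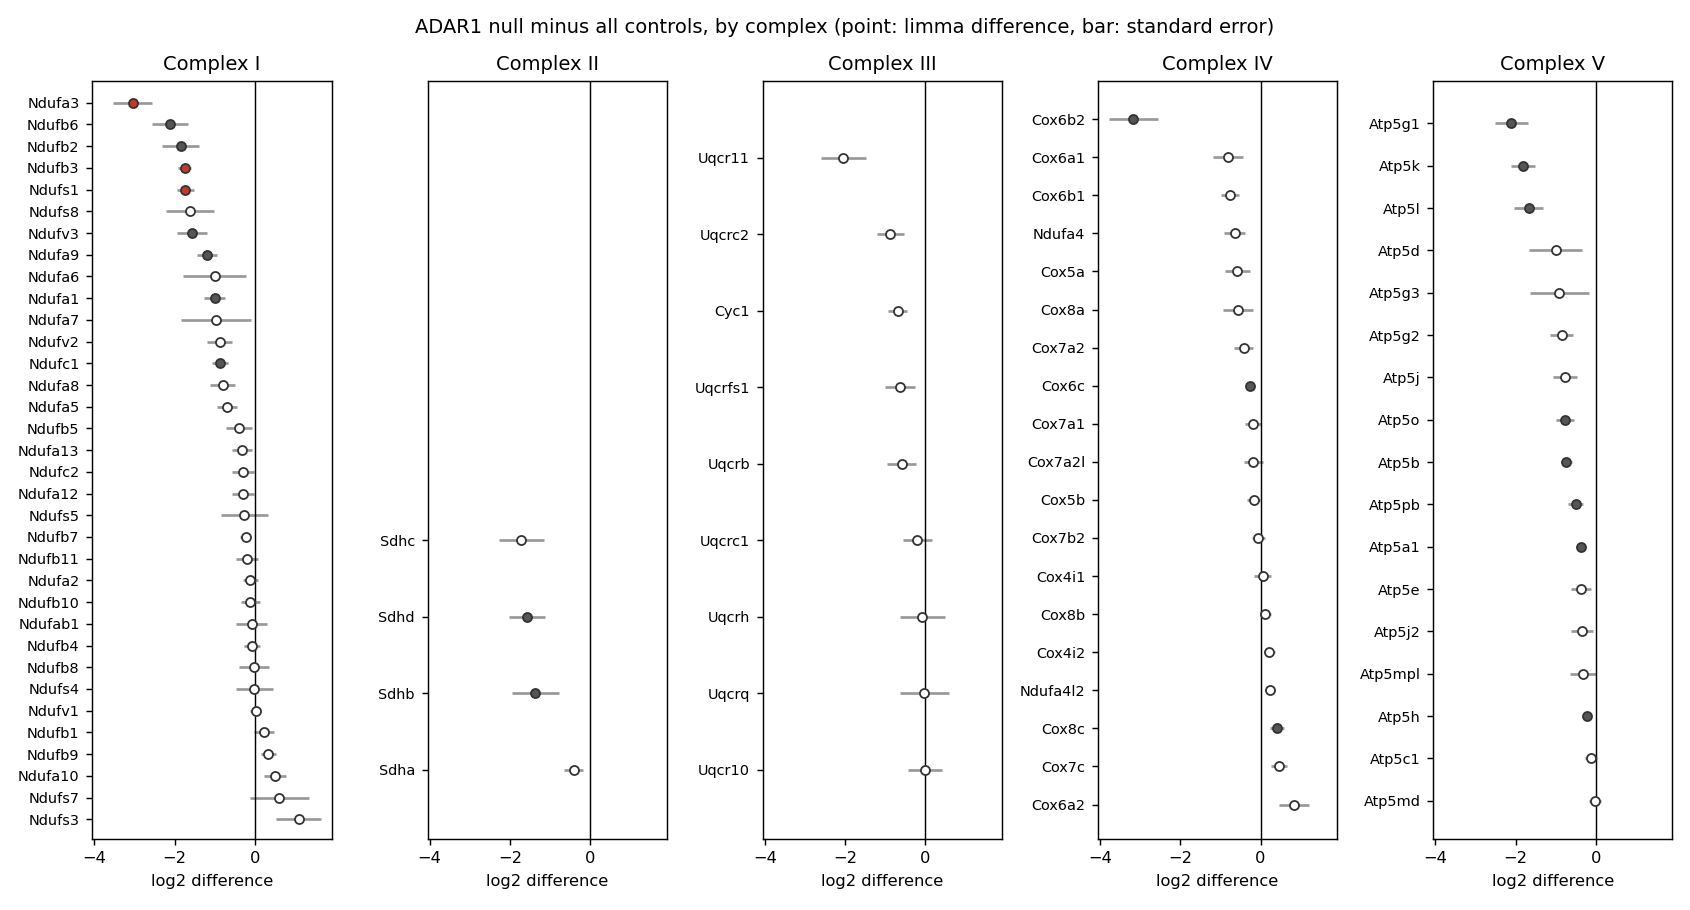
Log2 difference between KO and all controls for each of the 83 subunit genes, 1 panel per complex, with limma standard errors (3 KO and 5 control arrays). Red points passed at an adjusted p under 0.05 (Ndufb3, Ndufs1 and Ndufa3), grey points have all KO arrays on 1 side of all control arrays, and open points overlap; complex II has 4 of 4 points and complex V 17 of 17 below 0.

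The same 3 KO arrays enter the comparisons with WT and with HT, which are therefore not independent. Against WT, 1 subunit gene, Ndufb3, fell (1.2%, beside 0.126% of all genes lower) and 0 rose beside 0.39% higher; at an unadjusted p under 0.05 the counts were 20 lower (24.1%, beside 5.91% of all genes) and 2 higher (2.41%, beside 3.37%). Against HT, 2 fell, Ndufb3 and Ndufs1 (2.41%, beside 0.313% of all genes), and 0 rose beside 0.456%; the unadjusted counts were 27 lower (32.5%, beside 7.88%) and 0 higher (beside 5.12%). The medians of the 83 differences were -0.35 against WT and -0.49 against HT, beside 0 and 0.06 over all genes. Among genes with a mean level of at least 6, the medians were -0.42 and -0.58 for the subunit genes. Over all genes at that level they were -0.28 and -0.44. The counts against WT and HT stand beside all genes only, and not beside the closer background of brighter genes.

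As a description without a test, 21 of the 83 genes (25.3%) had all 3 KO arrays below all 5 control arrays, beside 4.95% of all genes. Of the 72 brighter genes 20 did so (27.8%), beside 12.6% of genes at that level. They were 9 of 34 genes of complex I (Ndufa1, Ndufa3, Ndufa9, Ndufb2, Ndufb3, Ndufb6, Ndufc1, Ndufs1 and Ndufv3), 2 of 4 of complex II (Sdhb and Sdhd), 0 of 9 of complex III, 2 of 19 of complex IV (Cox6b2 and Cox6c) and 8 of 17 of complex V (Atp5a1, Atp5b, Atp5g1, Atp5h, Atp5k, Atp5l, Atp5o and Atp5pb). The opposite order, all KO arrays above all controls, was seen in 1 gene, the dim Cox8c (1.2%), beside 4.19% of all genes. The distance from the lowest control to the highest KO array ran from 1.39 (Ndufa3) down to 0.05 (Atp5pb and Atp5h), and the nearest genes on the other side were Ndufa5 (0.00) and Cox6b1 (-0.03). This count was added after the data were seen. Leaving out KO 2 raised it to 33 (39.8%), while the share of all genes rose to 11% and that of the brighter genes to 26.6%. From here on, overlap means that of KO with the controls.

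Complex I has a peripheral arm, where NADH is oxidised and electrons run along iron-sulfur clusters, and a membrane arm that pumps protons. Ndufb3, an accessory subunit of the membrane arm, read 10.03 and 9.98 in WT, 9.86, 9.64 and 9.99 in HT and 8.15, 8.43 and 7.85 in KO. KO did not overlap with the controls, and every KO array was more than 1 unit below every control. The difference from controls was -1.75 ± 0.16 (3.37-fold lower, adjusted p = 0.0036, limma), and it was -1.86 ± 0.21 against WT (adjusted p = 0.0254) and -1.68 ± 0.18 against HT (0.0207). The call against all controls held under each of 17 alternative settings (adjusted p 0.00182 to 0.0184). The call against WT held in 9 of 18 settings and was lost without WT 1, WT 2, HT 1, HT 2, HT 3 or KO 1 (adjusted p 0.0611 to 0.0835). Against HT it held in 12 of 18 and was lost without HT 1, HT 2, HT 3 or KO 1 (0.0592 to 0.115).

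Ndufs1, the largest subunit of complex I and a carrier of its iron-sulfur clusters, read 6.80 and 5.84 in WT, 6.44, 6.62 and 6.40 in HT and 4.55, 4.71 and 4.79 in KO. The KO arrays lay close together and at least 1.05 units below the controls. The difference from controls was -1.73 ± 0.21 (3.33-fold lower, adjusted p = 0.0142, limma), that from HT -1.80 ± 0.25 (0.043) and that from WT -1.63 ± 0.28 (0.116). Leaving out HT 1, HT 2, HT 3 or KO 1 ended the call made against all controls (adjusted p 0.0507 to 0.0577), and an intensity trend in the fit did so too (0.132). The call against HT held in 7 of 18 settings and was lost without HT 1, HT 2, HT 3, KO 1, KO 2 or KO 3 (0.0624 to 0.188).

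Ndufa3, a small membrane-arm subunit, read 8.84 and 8.29 in WT, 9.44, 7.59 and 8.78 in HT and 5.87, 6.20 and 4.59 in KO. The gap between KO and controls was the widest of all subunit genes. The difference was -3.04 ± 0.49 (8.20-fold lower, adjusted p = 0.0484, limma), close to the threshold, and leaving out WT 1, WT 2, HT 1, HT 3, KO 1 or KO 3 ended the call (0.0759 to 0.14). Quantile (0.058) and cyclic loess normalization (0.0797), a pseudocount of 32 (0.0892) and array weights (0.13) ended it too, so that it held in 7 of 17 settings. A second probe set of Ndufa3 also had all KO arrays below the controls, with a difference of -3.55 ± 0.58 (adjusted p = 0.0532).

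Other membrane-arm genes were low in KO without passing on their brightest probe set. Ndufb6 read 8.90 and 9.36 in WT, 9.04, 9.39 and 8.89 in HT and 7.14, 8.06 and 5.82 in KO (difference -2.11 ± 0.45, adjusted p = 0.117, limma). Its second probe set, named here after its values were seen, read 8.08, 8.42, 8.43, 8.68 and 8.16 in the controls and 6.85, 6.86 and 7.18 in KO, and it fell by 1.39 ± 0.17 (adjusted p = 0.0135). Neither probe set overlapped between KO and controls. Ndufb2 had a difference of -1.85 ± 0.47 (adjusted p = 0.193), Ndufc1 -0.86 ± 0.20 (0.149) and Ndufa1 -1.0 ± 0.26 (0.205). In the peripheral arm Ndufa9, an accessory subunit near the quinone site, had a difference of -1.18 ± 0.25 (adjusted p = 0.125) and Ndufv3 one of -1.56 ± 0.38 (0.168), both without overlap. The core subunits of that arm did not all share a sign. Ndufs1 fell (above), while Ndufs3 and Ndufs7 had positive differences on their brightest probe sets (below). Ndufv1, which binds the flavin that accepts electrons from NADH, was at 0.02 ± 0.14, Ndufv2 at -0.88 ± 0.30 and Ndufs8 at -1.61 ± 0.60. Ndufv1, Ndufv2 and Ndufs8 did not pass. The further probe sets of Ndufs8 were also lower, with differences of -2.93 to -0.78, and did not pass either.

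The highest difference of all 83 genes was that of Ndufs3, a core subunit at the foot of the peripheral arm. It read 7.20 and 6.85 in WT, 7.54, 7.61 and 7.36 in HT and 10.02, 7.54 and 7.66 in KO. KO 1 alone stood high, and the others overlapped with the controls (1.09 ± 0.55, adjusted p = 0.493, limma). Ndufs7, which carries the last iron-sulfur cluster before the quinone, split the other way: KO read 8.53, 11.58 and 11.72 beside 9.43 to 10.71 in the controls (0.61 ± 0.73, adjusted p = 0.765). Its second probe set did not show this split. There KO read 7.16, 7.59 and 7.12 beside 7.3 to 8.19 in the controls (-0.43 ± 0.22, adjusted p = 0.503, limma).

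Complex II, which is also the succinate dehydrogenase of the tricarboxylic acid cycle, has 4 subunits and none from mitochondrial DNA. Sdhd, a membrane anchor, read 9.85 and 10.21 in WT, 10.19, 10.13 and 10.16 in HT and 7.22, 8.87 and 9.50 in KO. The controls lay close together and all KO arrays below them, spread over more than 2 units (-1.58 ± 0.45, adjusted p = 0.251, limma). A second probe set of Sdhd overlapped, with 5.54, 6.75 and 6.53 in KO and 6.62 to 6.83 in the controls (-0.46 ± 0.26, adjusted p = 0.534). Sdhb, the iron-sulfur subunit, read 8.66 and 8.51 in WT, 9.32, 8.87 and 8.90 in HT and 8.37, 5.76 and 8.35 in KO, so that KO 2 carried most of the difference (-1.36 ± 0.58, adjusted p = 0.431). Sdhc, the other anchor, had a difference of -1.71 ± 0.57 (adjusted p = 0.326) with KO 2 among the controls, and its second probe set one of -1.29 ± 0.33 (0.19) with no overlap. Sdha, the flavoprotein that oxidises succinate, was at -0.41 ± 0.23 (0.543). No gene of complex II passed the test, although 3 of the 4 had an unadjusted p under 0.05.

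None of the 9 genes of complex III passed, and none had KO arrays clear of the controls on its brightest probe set. Uqcr11, a small subunit, had the smallest p among them. It read 9.02 and 9.90 in WT, 8.51, 9.06 and 9.04 in HT and 8.59, 6.05 and 6.55 in KO, where KO 1 lay among the controls (-2.04 ± 0.57, adjusted p = 0.238, limma). Without KO 1 the difference was -2.81 and passed (adjusted p = 0.0271). The core protein Uqcrc2 was at -0.87 ± 0.33, cytochrome c1 (Cyc1) at -0.69 ± 0.24 and the Rieske protein (Uqcrfs1) at -0.63 ± 0.37, while Uqcrq was at -0.02 ± 0.60. Uqcrh was at -0.08 ± 0.56 on its brightest probe set. A second probe set of Uqcrh had no overlap, with 7.45, 8.19 and 8.03 in KO and 8.25 to 8.62 in the controls (-0.54 ± 0.19, adjusted p = 0.346, limma).

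Complex IV is cytochrome c oxidase. Cox6b2, known as the testis form of subunit 6b, had the lowest difference of all 83 genes. It read 7.61 and 6.74 in WT, 7.26, 7.23 and 7.94 in HT and 3.48, 5.89 and 3.17 in KO. KO did not overlap with the controls, and KO 2 lay between the other KO arrays and the controls (-3.17 ± 0.61, 9.03-fold lower, adjusted p = 0.0873, limma). Without KO 2 the difference was -4.03 and passed (adjusted p = 0.00339). Cox6b1, the widespread form, read 11.32 and 10.98 in WT, 10.95, 10.71 and 11.13 in HT and 9.88, 10.14 and 10.75 in KO (-0.76 ± 0.22, adjusted p = 0.256). Cox6c, with a small but even difference, was at -0.26 ± 0.10 (adjusted p = 0.375), with 11.58, 11.62 and 11.50 in KO and 11.78 to 11.91 in the controls.

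Several subunits of complex IV are made from alternative genes used in different tissues. Cox4i1, the widespread form of subunit 4, read 9.77 and 9.41 in WT, 9.85, 9.95 and 9.73 in HT and 9.30, 10.22 and 9.87 in KO, with KO on both sides of the controls (0.05 ± 0.22, adjusted p = 0.936, limma). Its sign turned without WT 2 (-0.03) or KO 2 (-0.16). Cox4i2, the form known from lung and low oxygen, read 2.99 and 3.29 in WT, 3.21, 3.07 and 3.02 in HT and 3.57, 3.10 and 3.34 in KO, near background on every array (0.22 ± 0.14, adjusted p = 0.578). Cox6a1 read 9.16 and 9.25 in WT, 9.78, 10.12 and 9.65 in HT and 8.19, 9.69 and 8.48 in KO (-0.81 ± 0.37, adjusted p = 0.462), with KO 2 among the controls. Its heart and muscle counterpart Cox6a2 read 3.29 and 3.45 in WT, 2.88, 3.04 and 2.97 in HT and 3.43, 5.01 and 3.43 in KO, with KO 2 alone standing out (0.83 ± 0.37, adjusted p = 0.451).

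The forms of subunits 7a and 8 overlapped between groups, apart from Cox8c. Cox7a2, the widespread form, read 9.96 and 10.66 in WT, 10.55, 10.59 and 10.49 in HT and 10.30, 9.53 and 10.27 in KO (-0.42 ± 0.24, adjusted p = 0.536, limma). Cox7a2l has been described as joining complexes III and IV into supercomplexes, which was not tested in these mice. It read 9.86 and 9.94 in WT, 10.04, 10.01 and 10.16 in HT and 10.27, 10.03 and 9.16 in KO (-0.18 ± 0.24, 0.788). Its sign turned without KO 3 (0.15) and under cyclic loess normalization (0.12), so that it has no direction of its own here. Cox7a1, the muscle form, read 2.52 and 3.30 in WT, 2.65, 3.09 and 2.73 in HT and 2.72, 2.81 and 2.51 in KO (-0.18 ± 0.20, 0.75). Cox8a, the widespread form of subunit 8, read 7.14 and 7.19 in WT, 7.65, 7.07 and 7.02 in HT and 7.18, 7.16 and 5.58 in KO, where KO 3 alone lay low (-0.57 ± 0.37, 0.587). On a second probe set of Cox8a KO 1 lay low too. There KO read 5.55, 7.01 and 5.13 beside 6.77 to 7.71 in the controls (-1.26 ± 0.43, adjusted p = 0.33, limma). Cox8b, the muscle form, was at background in every group, with 2.54 and 2.67 in WT, 2.60, 2.27 and 2.52 in HT and 2.75, 2.67 and 2.51 in KO (0.12 ± 0.13, 0.736). Cox8c, the testis form, read 3.11 and 3.71 in WT, 3.51, 3.73 and 3.61 in HT and 3.80, 3.99 and 4.04 in KO (0.41 ± 0.17, 0.413). Ndufa4l2, the low-oxygen relative of Ndufa4, a subunit first assigned to complex I, read 3.33 and 3.22 in WT, 3.09, 3.05 and 3.31 in HT and 3.65, 3.36 and 3.31 in KO (0.24 ± 0.13, 0.52). Thus the muscle, testis and low-oxygen forms were read near background on these probe sets, apart from Cox6b2 in the controls and on KO 2 and Cox6a2 on KO 2.

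**Figure D2:**
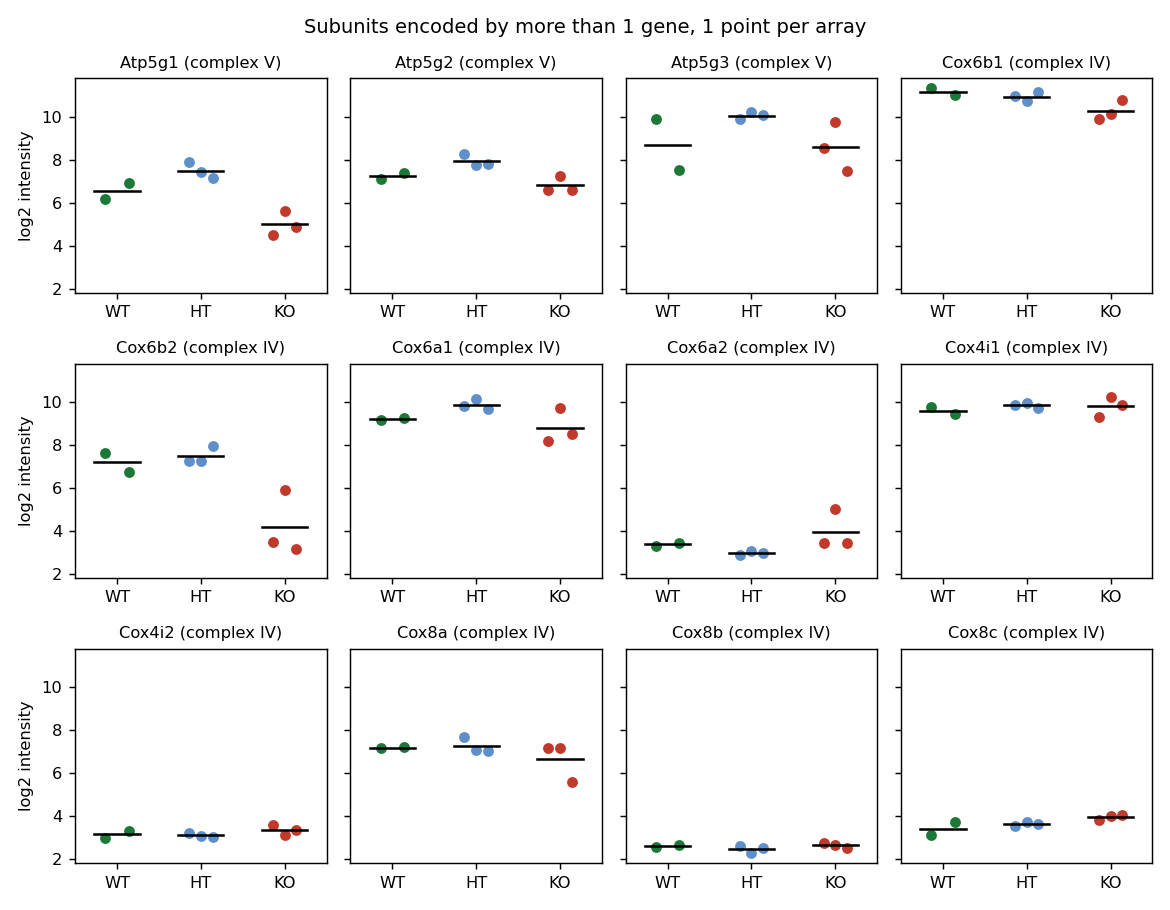
Log2 intensity of subunits encoded by more than 1 gene, 1 point per array and a line at the group mean (WT 2, HT 3 and KO 3 arrays). The KO points of Atp5g1 (4.50, 5.61 and 4.87) and Cox6b2 (3.48, 5.89 and 3.17) lie below all control points, whereas Cox4i1, Cox8a and Atp5g3 overlap.

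In complex V the difference was negative in all 17 genes (15 under quantile normalization, 13 under cyclic loess), and none passed. Atp5k, which encodes subunit e of the membrane part, read 11.98 and 11.97 in WT, 11.41, 11.75 and 11.65 in HT and 9.28, 10.66 and 9.88 in KO. KO did not overlap with the controls, and the difference of -1.81 ± 0.30 lay just outside the threshold (3.51-fold lower, adjusted p = 0.0534, limma). It passed without KO 2 (-2.17, 0.0105) and under 4 other settings. Its other probe sets had differences of -1.43 ± 0.36 and -1.30 ± 0.41. Atp5b, the catalytic beta subunit, read 11.18 and 11.11 in WT, 11.37, 11.28 and 11.19 in HT and 10.26, 10.51 and 10.72 in KO, a smaller but even difference with no overlap (-0.73 ± 0.13, adjusted p = 0.0742). Atp5l, subunit g, which lies beside subunit e, was at -1.67 ± 0.36 (adjusted p = 0.127), with 5.21, 6.41 and 6.75 in KO and 7.55 to 8.41 in the controls. Atp5a1, the alpha subunit, was at -0.38 ± 0.11 and Atp5c1, the gamma subunit of the rotor, at -0.12 ± 0.15.

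**Figure D3:**
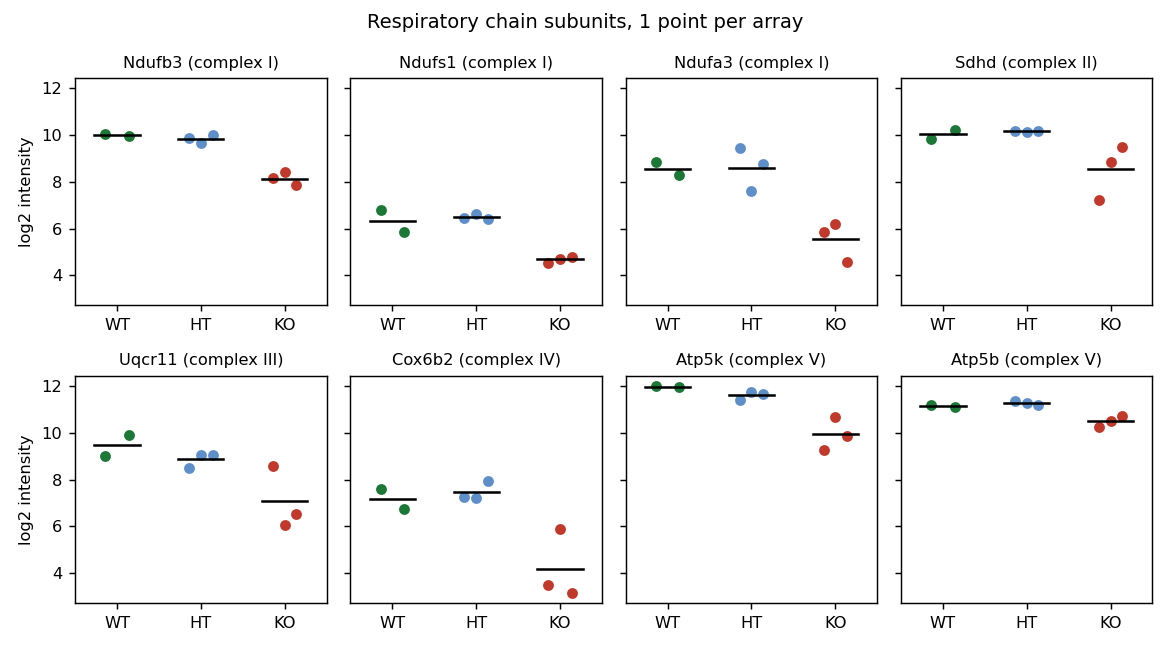
Log2 intensity of 8 subunit genes, 1 point per array and a line at the group mean. Ndufb3 (KO 7.85 to 8.43, controls 9.64 to 10.03), Ndufs1 and Ndufa3 passed the test against all controls; in Uqcr11 KO 1 (8.59) lies among the controls.

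The ring of c subunits that turns in the membrane is made from 3 genes that encode the same mature protein. Atp5g1 read 6.17 and 6.90 in WT, 7.90, 7.44 and 7.14 in HT and 4.50, 5.61 and 4.87 in KO, with no overlap (-2.11 ± 0.41 against controls, adjusted p = 0.0889; -2.50 ± 0.36 against HT, 0.0503, limma). A dim second probe set, above background on 2 of 8 arrays, went the other way (1.68 ± 0.46, adjusted p = 0.232). Atp5g2 read 7.11 and 7.40 in WT, 8.28, 7.77 and 7.80 in HT and 6.60, 7.26 and 6.61 in KO, where KO 2 lay among the WT arrays (-0.85 ± 0.29, adjusted p = 0.327). With the mean of its probe sets in place of the brightest, its difference was 0.18. That mean takes in a probe set above background on 1 array only (KO 3, at 6.18), with a difference of 1.32 ± 0.84. It also takes in another that was above background on no array (0.08 ± 0.1). Atp5g3 read 9.87 and 7.51 in WT, 9.87, 10.20 and 10.06 in HT and 8.54, 9.75 and 7.48 in KO, with WT 2 as low as the lowest KO array (-0.91 ± 0.73, adjusted p = 0.649).

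The KO arrays were not alike. The median difference from the control mean over the 72 brighter subunit genes was -0.70 on KO 1, -0.29 on KO 2 and -0.50 on KO 3, against -0.13 to 0.05 on the control arrays. Over the 3693 other genes of that brightness it was -0.57, -0.10 and -0.28, so the 3 arrays stood in the same order. Of the 72 genes, KO 1 was the lowest KO array for 34, KO 3 for 23 and KO 2 for 15. The spread between KO mice was wider than that between HT mice: the median standard deviation of the 72 genes was 0.61 in KO and 0.20 in HT (3 mice each), and that of the genes of this brightness that are no subunits was 0.75 and 0.25. KO 1 was also the array with the smallest share of probe sets above background (40%); the part of this in the differences was not tested.

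**Figure D4:**
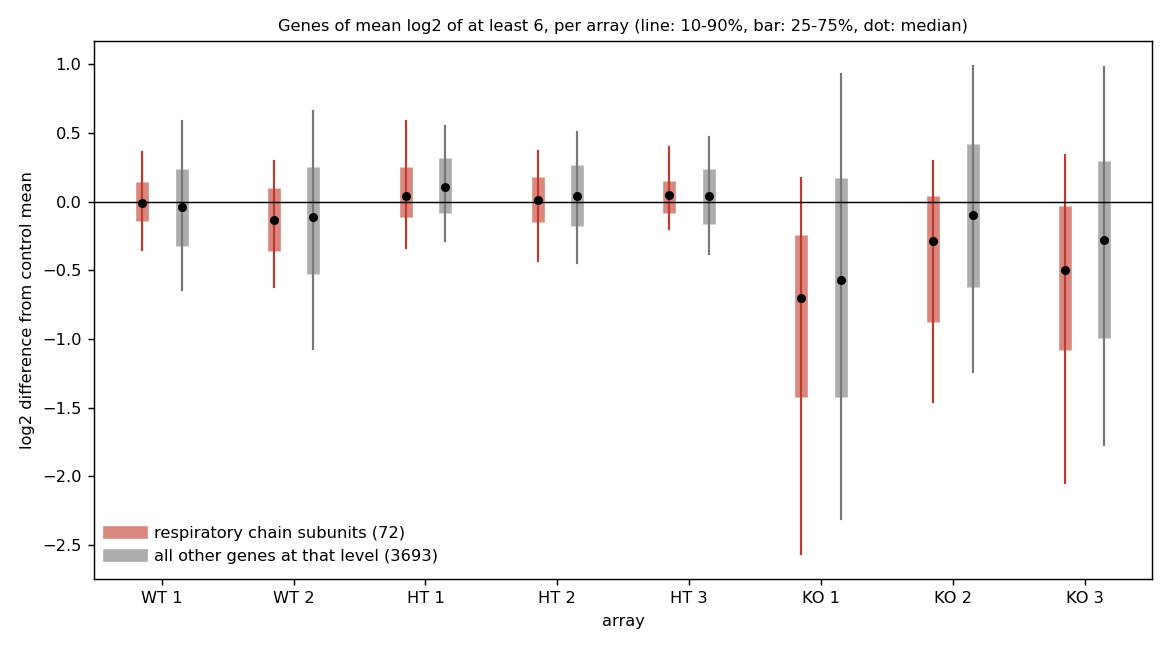
Log2 difference from the control mean on each array, for the 72 subunit genes with a mean level of at least 6 (red) and the 3693 other genes at that level (grey); lines span the 10th to 90th percentile, bars the 25th to 75th, and dots are medians. On the KO arrays the subunit medians are -0.70, -0.29 and -0.50 and those of the other genes -0.57, -0.10 and -0.28.

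More than 1 probe set was available for 49 of the 83 genes. Among the further probe sets with a mean of at least 6, 44 of 49 (36 genes) had the same sign of difference as the brightest one. For the 21 genes with KO below all controls, 12 of 12 such probe sets were lower and 4 had no overlap. Besides that of Atp5g1, 1 further probe set had the opposite sign at an unadjusted p under 0.05: Ndufb9, a membrane-arm subunit, was at 0.34 ± 0.18 on its brightest probe set and at -1.02 ± 0.33 on the other (adjusted p = 0.514 and 0.315, limma).

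Between HT and WT no subunit gene passed, and none of all genes did (0% at an adjusted p under 0.05, limma). At an unadjusted p under 0.05, 1 subunit gene was lower, beside 2.9% of all genes, and 5 were higher (6.02%), beside 3%. The median of the 83 differences was 0.09, against -0.05 over all genes and 0.14 over the brighter ones. The smallest p values were those of genes of complex V. Atp5e, the epsilon subunit, read 10.13 and 9.99 in WT and 9.62, 9.30 and 9.24 in HT (-0.67 ± 0.20, adjusted p = 0.891), with 9.03, 9.30 and 9.52 in KO. Atp5o, a subunit of the stalk that holds the catalytic head, read 7.69 and 7.69 in WT, 8.45, 8.13 and 8.31 in HT (0.60 ± 0.18, adjusted p = 0.891) and 7.34, 7.05 and 7.50 in KO (-0.76 ± 0.22 against controls, 0.258).

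Among 44 measured assembly factors, the proteins that build these complexes without being part of them, 1 fell against all controls and 0 rose, beside 0.379% and 0.555% of all genes and 1.14% of the brighter genes lower. Their median difference was -0.36, beside -0.39 over the brighter genes. The gene was Sdhaf1, which helps insert the iron-sulfur clusters of Sdhb. It read 7.04 and 7.50 in WT, 7.32, 7.82 and 8.17 in HT and 5.20, 4.76 and 4.94 in KO. Every KO array was below every control, and the call was made in all 3 comparisons: -2.61 ± 0.26 against controls (6.09-fold lower, adjusted p = 0.00479), -2.31 ± 0.29 against WT (0.0395) and -2.81 ± 0.26 against HT (0.0109, limma). Coa6, an assembly factor of complex IV named here after its values were seen, read 4.98, 4.45 and 4.84 in HT and was at background on all 3 KO arrays. It fell against HT by at least 3.27-fold, taking background as the KO level (adjusted p = 0.0261, limma), while 3.48 and 2.66 were read in WT. Cox18, which inserts a mitochondrially encoded subunit of complex IV into the membrane, was the other way: 6.08, 5.55 and 7.22 in KO against 3.55 to 4.91 in the controls, without overlap (2.20 ± 0.42, adjusted p = 0.0881).

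In the other lists of mitochondrial energy genes none passed against all controls. Their counts at an unadjusted p under 0.05 stand beside 7.98% of all genes and 21.5% of the brighter genes lower and 5.51% of all genes higher, and their medians beside 0.03 and -0.39. Of 17 enzymes of the tricarboxylic acid cycle, an unadjusted p under 0.05 was reached by 5 as lower and 1 as higher (median -0.76). Fumarase (Fh1) read 8.75 and 9.14 in WT, 8.78, 8.07 and 8.84 in HT and 6.18, 7.36 and 6.99 in KO (-1.87 ± 0.32, adjusted p = 0.0575, limma), with no overlap. Idh3a, a subunit of the NAD-linked isocitrate dehydrogenase, fell against HT (-1.24 ± 0.17, adjusted p = 0.042) and was at -1.07 ± 0.19 against all controls (0.0665). Of 18 genes of mobile electron carriers and coenzyme Q synthesis, it was reached by 3 as lower and 1 as higher (median -0.49). Cytochrome c itself (Cycs) read 10.79 and 11.02 in WT, 10.88, 10.86 and 10.77 in HT and 9.82, 10.30 and 10.20 in KO, with no overlap (-0.76 ± 0.14, adjusted p = 0.0781). The second gene of that list by p was Etfdh, which feeds electrons from fatty acid oxidation to coenzyme Q, with 3.47, 5.40 and 3.72 in KO and 5.18 to 7.39 in the controls.

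Of 23 genes for the upkeep and transcription of mitochondrial DNA and their nuclear regulators, an unadjusted p under 0.05 was reached by 4 as lower and 1 as higher (median -0.52). Nrf1, whose product binds the NRF1-type motif above, read 9.22 and 8.99 in WT, 8.84, 9.09 and 8.81 in HT and 6.10, 8.55 and 7.45 in KO (-1.62 ± 0.47, adjusted p = 0.257, limma). All 3 KO arrays lay below the controls, KO 2 by the least. Pprc1, a coactivator of such genes, read 4.40, 6.87 and 5.63 in KO and 6.98 to 8.33 in the controls, also without overlap (adjusted p = 0.193). Tfam, which packages mitochondrial DNA, was named for its role and was at -0.22 ± 0.25 (0.752). Of 10 adenine nucleotide carriers, uncoupling proteins and the ATPase inhibitor, it was reached by 3 as lower and 0 as higher (median -0.27). Slc25a4, a carrier that exchanges ATP for ADP across the inner membrane, read 8.21, 8.88 and 8.04 in KO and 8.80 to 9.33 in the controls. Atpif1, the inhibitor of the ATP synthase, read 11.99, 12.28 and 12.07 in KO, all below the 12.33 to 12.50 of the controls.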

How the data were processed

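Total RNA of 8 mice was amplified and biotin-labelled for Affymetrix arrays, per the labels' protocols. The values that the authors deposited are intensity on a linear scale, 1 per probe set. The submitters' processing notes name RMA, whose version is not given in the sources used here. Log2 was taken of the deposited intensity as it stood, with no further normalization. The deposited values did not have the same distribution on every array. The upper quartile of log2 intensity was 3.99, 4.41 and 4.01 on the KO arrays and 4.2 to 4.52 on the control arrays. Results after quantile and cyclic loess normalization are given among the alternatives. Of 45101 probe sets, 64 controls were left out and 45037 tested, of which 34945 name 1 gene. All 83 subunit genes matched the reference by gene number. 10 probe sets that name a subunit gene and another gene were left out. The number of arrays limits the precision.

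A 3-group linear model (limma 3.58.1, R 4.3.3, lmFit and eBayes, 5 residual degrees of freedom) gave KO minus WT, KO minus HT and HT minus WT. A 2-group model (6 residual degrees of freedom) gave KO minus controls. Both models took the same spread in every group, although the spread was wider in KO than in HT (above). The standard errors and p values of the KO comparisons therefore do not carry the wider KO spread separately. Two-sided p values were corrected with the Benjamini-Hochberg procedure across every probe set in the fit, and an adjusted p under 0.05 was called. The script was tested on simulated data, drawn with the same spread in every group. Replicates are separate mice, numbered in order of deposit, and pair nothing.

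The subunit genes, the lists and the tests were chosen with earlier results of these data known. Genes given in full were those past the threshold, the smallest p of each complex, the highest and lowest difference, the 2 smallest p in HT minus WT, and alternative forms of a subunit; in the other lists, up to 2 genes of smallest p. Other genes are given as examples of their complex, chosen after their values were seen. The count of genes whose arrays do not overlap and the subset with a mean log2 of at least 6 were added after seeing the data. Alternatives were quantile and cyclic loess normalization, a pseudocount of 32, filters on dim probe sets (the median level; above background on at least 2 arrays), 1 value per gene (brightest or mean), array weights, an intensity trend, the compared groups alone, and leaving out each array.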

Additional observations from a re-analysis of the deposited data

How the results depend on the processing

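No paired analysis was possible because the labels give no shared replicate numbers. The subunit genes called against WT (1) were 0 with array weights, with the compared groups only and with an intensity trend, and 0 to 3 leaving out 1 array (3 without KO 2). Those called against HT (2) were 0 under cyclic loess, 1 with a pseudocount of 32, 0 with an intensity trend, and 0 to 5 leaving out 1 array (0 without HT 1, HT 2, HT 3 or KO 1; 5 without KO 2). Those called against all controls (3) were 5 with the filter at the median level, 6 with the mean of probe sets, 5 with an intensity trend, and 1 to 6 leaving out 1 array (1 without HT 1 or HT 3; 6 without KO 2). Against WT, the count was 0 without WT 1, HT 1, HT 2, HT 3 or KO 1.

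The median over subunit genes was -0.15 under cyclic loess against WT. Against HT it was -0.27 under quantile normalization, -0.19 under cyclic loess and -0.61 to -0.32 leaving out 1 array. Against all controls it was -0.24, -0.15 and -0.55 to -0.27 in turn. After quantile normalization the brighter subunit genes had a median of -0.36 and all genes of that brightness -0.19, and after cyclic loess -0.25 and -0.05. The count of subunit genes with KO below all controls was then 16 (19.3%, beside 4.17% of all genes) and 15 (18.1%, beside 3.6%); among the brighter ones it was 15 (20.8%, beside 8.95% of genes at that level) and 14 (19.4%, beside 6.53%). Leaving out 1 array it was 21 to 33, beside 5.48% to 11% of all genes and 13.3% to 26.6% of the brighter ones.

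The difference from controls turned for Atp5g2 with the mean of probe sets, dim ones included (0.18). It also turned for Cox4i1 without an array (-0.16 to 0.30) and for Cox7a2l under cyclic loess (0.12) and without an array (-0.41 to 0.15). Of the other values for single genes, 457 kept direction and call, 41 lost the call and 9 gained it. The cause of these changes was not tested. A group left with 1 array was assumed to vary like the others.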
